A study of Mus musculus with 4 samples.

Results

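Type I interferon-stimulated genes were examined in the blood of adult C57BL/6 mice treated with naringenin (Nar), a plant flavonoid, and in control mice. The 39 genes were taken by gene symbol from a fixed list, and all 39 had values in the 4 libraries, among 17823 genes with values. The Nar group received Nar by tail vein for 30 days and the control group (Ctrl) received phosphate-buffered saline (PBS) over the same period. The study describes the animals as aging mice, and its purpose in sequencing blood was to look for genes through which Nar acts. RNA of blood was sequenced in 2 Ctrl libraries and 2 Nar libraries, numbered 1 and 3 in each group. The labels do not state how many animals stand behind a library, so the tests measure only the spread between these samples.

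Type I interferons are secreted cytokines that cells release after sensing foreign or misplaced nucleic acid. Their receptor signals through the kinases JAK1 and TYK2 to transcription factors, STAT2 and IRF9 among them, that act at a short promoter element, the interferon-stimulated response element (ISRE). The genes turned on in this way encode nucleic acid sensors, proteins that block viral entry, translation or replication, and feedback inhibitors, and their level in blood cells is widely used as a measure of interferon exposure.

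Promoter stretches of members are shown because the core of this element stands before genes that were called lower with Nar and genes that were not called. The core, GAAA, any 2 bases and GAAA (TTTC, any 2 bases and TTTC on the other strand), was searched on both strands of RefSeq promoter windows of 300 bases (GRCm38.p6), from 250 bases before a transcript start to 50 after it. Of the 29 members with a window, 13 (44.8%) held it, against 3.99% of 27025 genes. A longer form, the core followed by CT, each match of which contains a core match, was held by 7 of 29 members (24.1%) and by 0.303% of all genes. A match describes letters and is not a measured binding site. The 6 stretches printed lie wholly outside the span that RefSeq gives for the gene, which those of Ifit3, Ifitm2 and Oas1a do not. In each stretch the core matches are in capitals, overlapping matches run together, and the sequence is written 5′ to 3′ on the strand of the gene.

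Isg15 (chr4:156200850-156200909, minus strand): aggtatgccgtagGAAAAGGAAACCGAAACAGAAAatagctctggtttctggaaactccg
Rsad2 (chr12:26456538-26456597, minus strand): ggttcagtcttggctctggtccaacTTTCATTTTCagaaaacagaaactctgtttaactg
Oas3 (chr5:120777700-120777759, minus strand): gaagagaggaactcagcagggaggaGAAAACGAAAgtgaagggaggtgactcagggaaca
Ifit1 (chr19:34640779-34640838, plus strand): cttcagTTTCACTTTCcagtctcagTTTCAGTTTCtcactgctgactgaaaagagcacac
Bst2 (chr8:71537562-71537621, minus strand): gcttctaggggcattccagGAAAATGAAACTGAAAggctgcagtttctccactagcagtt
Trim30a (chr7:104465195-104465254, minus strand): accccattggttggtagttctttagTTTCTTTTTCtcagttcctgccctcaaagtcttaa

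In the values given below, Isg15, Rsad2, Oas3 and Ifit1 were not called different between the groups, while Bst2 and Trim30a were called lower with Nar. The core nearest to the transcript start began 66 bases before it in Isg15, 120 in Rsad2, 75 in Oas3, 85 in Ifit1, 124 in Bst2 and 36 in Trim30a. Among members called lower, 7 of 15 with a window held the core and 6 of 15 the longer form. Among tested members not called, 4 of 11 held the core and 1 of 11 the longer form.

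The deposited unit is FPKM, fragments per kilobase of transcript, scaled to the mapped fragments of the library, which is a share of the library and allows levels of different genes to be compared per length. Haemoglobin genes took 92.6% to 95.1% of the summed FPKM in the Ctrl libraries and 95.7% to 96.4% in the Nar libraries, and the median difference of all 5339 tested genes was -1.07 on the log2(FPKM + 0.1) scale. Differences are given on the FPKM scale, and for the genes that matter most also after median-of-ratios scaling, which brings the median of all tested genes to -0.06. On neither scale can fewer cells of a type be told apart from less RNA per cell. Ctrl 3 stood apart in platelet marker genes, whose summed level was 2096 FPKM there and 438 to 670 FPKM in the other libraries. Read numbers are unknown, and the counting error of the values could not be estimated.

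Of the 39 genes, 33 reached a mean FPKM of 0.5 and were tested with limma. With Nar, 20 of the 33 (60.6%) were lower by more than 2-fold with a p-value, adjusted after Benjamini and Hochberg, under 0.05, where 39.3% of all tested genes were, and 0 were higher, where 0.15% of all tested genes were. At an unadjusted p-value under 0.05 stood 21 of the 33 (63.6%), beside 56.9% of all tested genes. The median difference of the 33 was -1.42, beside -1.07 for all tested genes, with single genes from -3.70 (Ifitm6) to 0.43 (Isg20). After median-of-ratios scaling the median was -0.35, the 20 genes ran from -2.63 (Oas2) to -0.16 (Ifit2), and 1 gene (Oas2) was still called lower, where 0.356% of all tested genes were, and 0 were higher, where 0.0937% were. With the libraries rescaled after haemoglobin genes were taken out, 8 of the 33 were called lower, where 5.01% of all tested genes were. Both Nar libraries lay below both Ctrl libraries for 24 of the 33 genes (72.7%), where 78.3% of all tested genes did so. The filter on the mean of all 4 libraries let 10 of the 33 pass through their Ctrl level alone. Their Nar mean was under 0.5 FPKM, so that these had to differ. Of the 10, 9 were among the calls, where 57.8% of all 1561 tested genes that passed in this way were. Of the 23 with both group means at 0.5 FPKM or more, 11 were called lower, where 31.9% of all such genes were, and their median difference was -1.02 beside -1.0 for all such genes. The number of calls fell with any single library left out. Such a fit also has fewer values to estimate the spread from. The weight of a single library therefore cannot be told apart from the smaller number of libraries. With Ctrl 1 or Ctrl 3 left out, limma called 0 members and 0 of all genes, and with Nar 1 or Nar 3 left out it called 6 and 3 of 33 members lower, beside 254 and 213 of the 5339 genes. A group of 1 library is there assumed to vary like the other group. Without Ctrl 1, the unadjusted p-value was under 0.05 for 18 of 33 members and 2682 of 5339 genes, and without Ctrl 3 for 19 and 2133. The median difference of the members was -1.40 without Ctrl 1 and -1.30 without Ctrl 3.

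**Figure D1:**
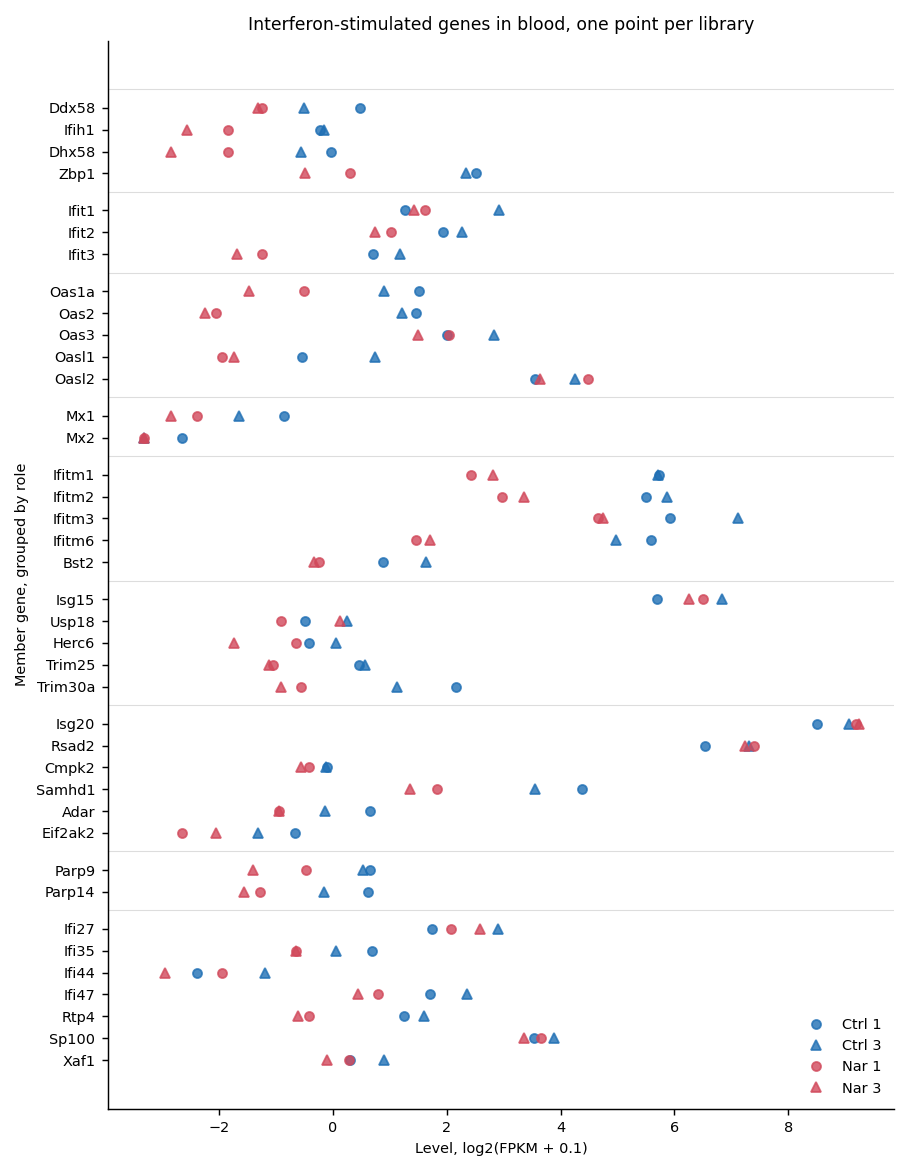
Level of each of the 39 genes on the log2(FPKM + 0.1) scale, 1 point per library (blue Ctrl, red Nar; circles replicate 1, triangles replicate 3), grouped by role. The IFITM genes, Samhd1 and Zbp1 show the Nar libraries clear of the Ctrl libraries, while the points of Isg15, Rsad2, Oasl2 and Sp100 lie among each other.

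The most abundant of these genes did not follow the others. Isg20, a 3′ to 5′ exonuclease that degrades single-stranded RNA (NCBI Gene 57444, chr7:78913396-78920396), stood at 363.20 FPKM in Ctrl 1 and 537.77 in Ctrl 3, against 586.87 in Nar 1 and 603.36 in Nar 3. It was the only member with both Nar libraries above both Ctrl libraries, as 1.27% of all tested genes were, and its difference of 0.43 (standard error 0.409) was not called (limma adjusted p = 0.371). Rsad2 encodes viperin, a radical SAM enzyme that makes a chain-terminating nucleotide (NCBI Gene 58185, chr12:26442743-26456452). It was at 92.97 and 158.37 FPKM in Ctrl 1 and 3 and at 168.89 and 150.31 in Nar 1 and 3. The Rsad2 groups overlapped, and the difference was 0.39 (standard error 0.494, limma adjusted p = 0.495).

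Isg15, a ubiquitin-like protein that is attached to other proteins during an interferon response (NCBI Gene 100038882, chr4:156199424-156200818), was at 51.70 FPKM in Ctrl 1 and 114.53 in Ctrl 3, against 90.85 in Nar 1 and 76.03 in Nar 3. Both Nar values fell between the 2 Ctrl values, with Ctrl 3 the highest (difference 0.11, limma adjusted p = 0.865). Isg20, Rsad2 and Isg15 together made up 62.6% and 67.5% of the summed FPKM of the 39 genes in Ctrl 1 and 3, and 89.1% and 89.8% in Nar 1 and 3. The other 36 genes summed to 303 and 390 FPKM in Ctrl and to 104 and 94.1 FPKM in Nar. The 3 genes were set aside after their values had been seen, and the 4 IFITM genes and Bst2 made up 209 and 283 FPKM of this remainder in Ctrl and 41.4 and 47.7 FPKM in Nar. The 31 genes left then summed to 94.5 and 107 FPKM in Ctrl and to 62.3 and 46.4 FPKM in Nar. The sum over all 39 genes ran from 811 to 1201 FPKM in Ctrl and from 924 to 950 FPKM in Nar and did not separate them.

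Of the 11 members with a mean of at least 5 FPKM, 5 were called lower (15.8% of all genes at that level were). These were Ifitm1, Ifitm2, Ifitm3, Ifitm6 and Samhd1, and the other 6, Isg20, Rsad2, Isg15, Oasl2, Ifi27 and Sp100, had differences between -0.21 and 0.43. Of the 22 members between 0.5 and 5 FPKM, 15 were called lower (45.3% of all genes at that level were), but 9 of the 15 had reached that level through Ctrl alone (Ddx58, Ifit3, Oas1a, Oas2, Oasl1, Trim25, Adar, Parp9 and Parp14), so the count is no support for a difference. The abundant members had a median of -0.21, beside -0.94 for all genes of that level. After median-of-ratios scaling the same 6 genes had differences of 0.89 to 1.54, none of them called.

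**Figure D2:**
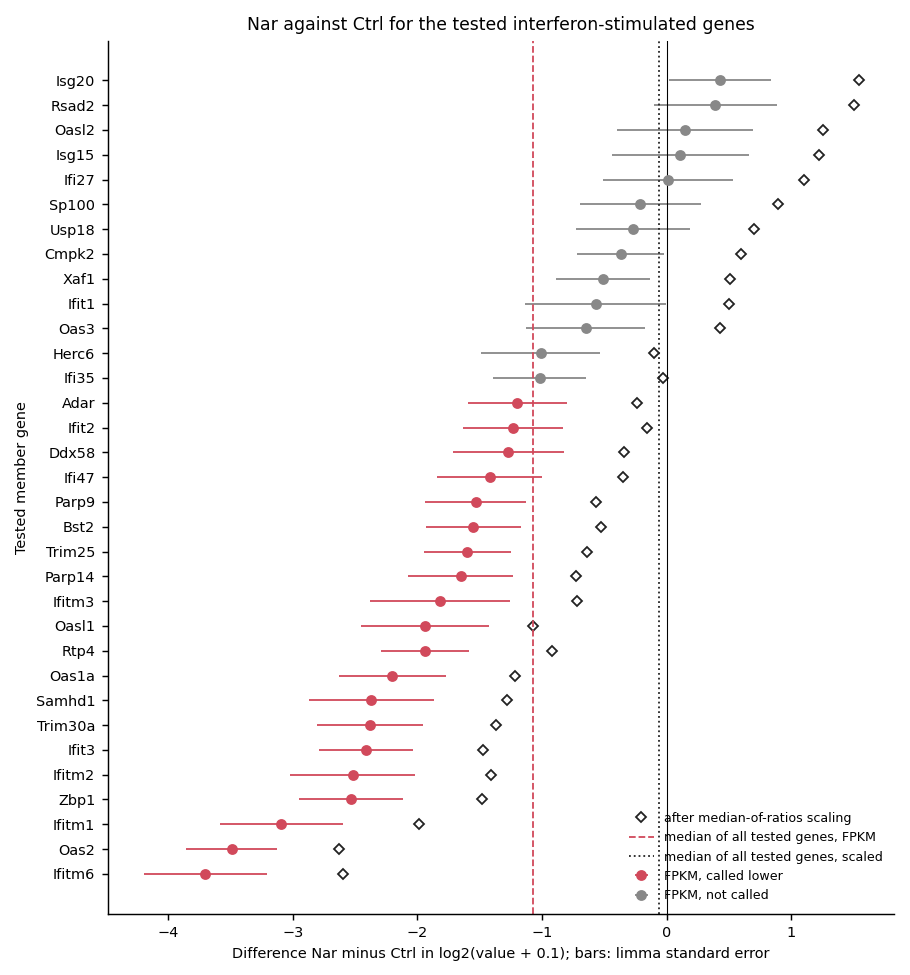
Difference between Nar and Ctrl for the 33 tested genes on the log2(FPKM + 0.1) scale with the limma standard error (red called lower, grey not called), and after median-of-ratios scaling (open diamonds). Dashed and dotted lines mark the medians of all tested genes, -1.07 and -0.06; from Isg20 to Oas3 the FPKM differences lie above the first line and the rescaled ones above the second, as do those of Ifi35.

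The IFITM proteins sit in membranes and hinder the fusion of virus and cell. All 4 IFITM genes on the member list were called lower with Nar, where 15.8% of all genes with a mean of at least 5 FPKM were. Ifitm6 (NCBI Gene 213002, chr7:141015812-141016892) was at 48.14 FPKM in Ctrl 1 and 31.33 in Ctrl 3, against 2.66 in Nar 1 and 3.16 in Nar 3. The Nar values were far below the Ctrl values, 13.7-fold in the means, with a difference of -3.70 (standard error 0.494, limma adjusted p = 0.00427). Ifitm1 stood at 52.69 and 52.17 FPKM in Ctrl and at 5.27 and 6.95 in Nar, a difference of -3.09 (limma adjusted p = 0.0057). In Ctrl the 2 libraries gave nearly one value, so that the 8.58-fold distance to Nar was large beside the spread.

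Ifitm2 was at 45.42 and 58.17 FPKM in Ctrl 1 and 3 and at 7.73 and 10.21 in Nar 1 and 3, a difference of -2.52 (limma adjusted p = 0.0121). Ifitm3, the best known restriction factor of the family, was at 60.89 in Ctrl 1 and 138.05 in Ctrl 3, against 24.99 in Nar 1 and 26.72 in Nar 3. The Ifitm3 groups did not overlap, but its Ctrl libraries were more than 2-fold apart. Its difference was the smallest of the 4 listed IFITM genes at -1.82 (standard error 0.562, limma adjusted p = 0.0353). After median-of-ratios scaling the differences were -2.60 for Ifitm6, -1.99 for Ifitm1, -1.41 for Ifitm2 and -0.72 for Ifitm3, with limma adjusted p-values of 0.078, 0.125, 0.253 and 0.704. The 4 genes lie beside each other on chromosome 7 and encode similar proteins, between which alignment can divide reads. Bst2, the surface protein tetherin that holds budding virus on the cell, had 1.74 and 2.99 FPKM in Ctrl and 0.74 and 0.69 in Nar (difference -1.55, limma adjusted p = 0.0211; -0.53 and not called after scaling).

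The oligoadenylate synthetases make a second messenger that activates RNase L. Of the 5 genes of the family, synthetase-like ones included, 3 were called lower (Oas1a, Oas2 and Oasl1), where 39.3% of all tested genes were. All 3 had passed the filter through Ctrl alone, and of all tested genes that did so 57.8% were called. The count is therefore no support for a difference. Oas2 (NCBI Gene 246728, chr5:120730333-120749886) was at 2.65 FPKM in Ctrl 1 and 2.22 in Ctrl 3, against 0.14 in Nar 1 and 0.11 in Nar 3. Its means were 19.5-fold apart, the widest ratio of any tested member, with a difference of -3.49 (standard error 0.364, limma adjusted p = 0.00238). After median-of-ratios scaling Oas2 was at -2.63 (limma adjusted p = 0.0326), the one call among the 33 on that scale, though it had passed the filter only through its Ctrl level. Oas1a, with 2.74 and 1.77 FPKM in Ctrl and 0.60 and 0.26 in Nar, was also called lower (difference -2.20, limma adjusted p = 0.0111).

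Oas3 and Oasl2 behaved otherwise. Oas3, whose gene adjoins Oas2 on chromosome 5, was at 3.93 FPKM in Ctrl 1 and 7.05 in Ctrl 3, against 4.03 in Nar 1 and 2.72 in Nar 3, so that the groups overlapped (difference -0.65, limma adjusted p = 0.254). Oasl2, a synthetase-like protein with ubiquitin-like domains, was the most abundant of the family at 11.59 and 19.06 FPKM in Ctrl and 22.12 and 12.28 in Nar (difference 0.15, limma adjusted p = 0.817). Its neighbour Oasl1 (chr5:114923143-114937911), which is known to restrain translation of Irf7, was at 0.59 and 1.56 FPKM in Ctrl and 0.16 and 0.20 in Nar and was called lower (difference -1.94, limma adjusted p = 0.0248). Oas1a has close relatives in its cluster, so its reads may be shared with them.

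IFIT proteins bind viral RNA and block its translation, and 2 of the 3 genes were called lower (39.3% of all tested genes were). Of these, Ifit3 had passed the filter through Ctrl alone. Ifit3 (NCBI Gene 15959, chr19:34583119-34588982) was at 1.52 FPKM in Ctrl 1 and 2.16 in Ctrl 3, against 0.32 in Nar 1 and 0.21 in Nar 3. The groups were clearly apart, with a difference of -2.41 (standard error 0.378, limma adjusted p = 0.00553), though a nearly identical copy, Ifit3b, can take part of its reads. Ifit2 was at 3.74 and 4.74 FPKM in Ctrl and 1.93 and 1.56 in Nar (difference -1.23, limma adjusted p = 0.0412). Ifit1, which recognises RNA caps that lack methylation, was at 2.31 in Ctrl 1 and 7.49 in Ctrl 3, against 2.97 in Nar 1 and 2.60 in Nar 3. Only Ctrl 3 was high, both Nar values exceeded Ctrl 1, and no difference was called (-0.57, limma adjusted p = 0.387). After median-of-ratios scaling Ifit3 was at -1.47, Ifit2 at -0.16 and Ifit1 at 0.50, none of them called.

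Of 4 sensors of nucleic acid, 2 could be tested and both were called lower, where 45.3% of all genes at their level were. Ddx58 had reached that level through Ctrl alone. Zbp1, a sensor of Z-form nucleic acid that can start necroptosis (NCBI Gene 58203, chr2:173206612-173218959), was at 5.64 FPKM in Ctrl 1 and 4.96 in Ctrl 3, against 1.13 in Nar 1 and 0.61 in Nar 3. The Ctrl values were close to each other and 6.09-fold above Nar in the means (difference -2.53, standard error 0.417, limma adjusted p = 0.00654). Ddx58, which encodes the RNA helicase RIG-I, was at 1.29 and 0.60 FPKM in Ctrl and 0.32 and 0.30 in Nar and lay at the edge of the threshold (difference -1.27, limma adjusted p = 0.0498). After median-of-ratios scaling neither was called, with -1.48 for Zbp1 and -0.34 for Ddx58.

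Ifih1, which encodes the helicase MDA5, was below the level for testing at 0.75 and 0.80 FPKM in Ctrl and 0.18 and 0.07 in Nar. Dhx58, which encodes their relative LGP2, was at 0.88 and 0.58 FPKM in Ctrl and 0.18 and 0.04 in Nar. For both, the Nar libraries lay below the Ctrl libraries.

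Of 5 tested enzymes that act on RNA, DNA and nucleotides, 2 were called lower, a share like the 39.3% of all tested genes, and Samhd1 differed most. Samhd1, a phosphohydrolase that empties the cell's pool of deoxynucleotides (NCBI Gene 56045, chr2:157097534-157135096), was at 20.78 FPKM in Ctrl 1 and 11.56 in Ctrl 3, against 3.46 in Nar 1 and 2.46 in Nar 3. The groups were 5.46-fold apart in their means, more than the spread of either (difference -2.37, standard error 0.502, limma adjusted p = 0.0147). Adar, which converts adenosine to inosine in double-stranded RNA, was at 1.47 and 0.81 FPKM in Ctrl and 0.42 in each Nar library (difference -1.20, limma adjusted p = 0.0424). With median-of-ratios scaling Samhd1 was at -1.28 and Adar at -0.24, and neither was called. Eif2ak2, the double-stranded RNA kinase PKR, was too low to test at 0.53 and 0.30 FPKM in Ctrl and 0.06 and 0.14 in Nar. Cmpk2, a mitochondrial nucleotide kinase whose gene neighbours Rsad2 on chromosome 12, was at 0.83 and 0.82 FPKM in Ctrl and 0.65 and 0.58 in Nar. Its difference of -0.37 was not called (limma adjusted p = 0.362).

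Of 5 genes of the ISG15 system and ubiquitin ligases, 2 were called lower, a share like the 39.3% of all tested genes. Trim30a, a mouse TRIM protein, was at 4.38 FPKM in Ctrl 1 and 2.07 in Ctrl 3, against 0.58 in Nar 1 and 0.43 in Nar 3 (difference -2.38, limma adjusted p = 0.00857). Trim25, the ligase that acts on RIG-I, was at 1.28 and 1.38 FPKM in Ctrl and 0.38 and 0.36 in Nar (difference -1.60, limma adjusted p = 0.0158). In both genes all Nar values were under all Ctrl values, with Trim25 nearly constant inside each group. Usp18, which removes Isg15 from proteins and blocks the interferon receptor, was at 0.61 and 1.09 FPKM in Ctrl and 0.43 and 0.99 in Nar, and the groups overlapped (difference -0.27, limma adjusted p = 0.606). Herc6, the ligase that attaches Isg15 in mice, was at 0.65 and 0.94 FPKM in Ctrl and 0.54 and 0.20 in Nar and was not called (difference -1.01, limma adjusted p = 0.103). Trim30a and Trim25 were at -1.37 and -0.64 after median-of-ratios scaling and were not called there.

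Parp9 and Parp14, ADP-ribosyltransferases whose genes lie close together on chromosome 16, were both called lower, where 45.3% of all genes at their level were. Both had passed the filter through Ctrl alone, and of all tested genes that did so 57.8% were called. The pair of calls is therefore no support for a difference. Parp9 was at 1.48 and 1.35 FPKM in Ctrl and 0.62 and 0.28 in Nar (difference -1.53, limma adjusted p = 0.0247). Parp14 was at 1.43 and 0.80 FPKM in Ctrl and 0.31 and 0.24 in Nar (difference -1.65, limma adjusted p = 0.0226). With median-of-ratios scaling they were at -0.57 and -0.73, not called.

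Of the remaining interferon-induced genes, 2 of 6 tested were called lower, Rtp4 and Ifi47, a share below the 39.3% of all tested genes. Rtp4, a transmembrane protein with antiviral activity (NCBI Gene 67775), was at 2.27 and 2.93 FPKM in Ctrl and 0.65 and 0.55 in Nar (difference -1.94, standard error 0.351, limma adjusted p = 0.00873). Ifi47, an immunity-related GTPase, was at 3.15 and 5.05 FPKM in Ctrl and 1.63 and 1.26 in Nar (difference -1.42, limma adjusted p = 0.032). Ifi35 missed the threshold, with 1.51 and 0.94 FPKM in Ctrl and 0.54 in each Nar library (difference -1.02, limma adjusted p = 0.0541). After rescaling Rtp4 was at -0.92, Ifi47 at -0.35 and Ifi35 at -0.03, without a call.

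Sp100, a component of nuclear PML bodies, was at 11.50 FPKM in Ctrl 1 and 14.75 in Ctrl 3, against 12.49 in Nar 1 and 10.16 in Nar 3 (difference -0.21, limma adjusted p = 0.714). Ifi27 was at 3.25 and 7.34 FPKM in Ctrl and 4.12 and 5.90 in Nar (difference 0.01, limma adjusted p = 0.986). In both genes the groups overlapped. Xaf1, a pro-apoptotic protein, was at 1.13 and 1.76 FPKM in Ctrl and 1.12 and 0.83 in Nar (difference -0.51, limma adjusted p = 0.257).

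The Mx GTPases, which are strong antiviral proteins but of which C57BL/6 mice are known to carry a defective Mx1, were near the floor of the table. Mx1 was at 0.45 and 0.22 FPKM in Ctrl and 0.09 and 0.04 in Nar, and Mx2 was listed at 0.06 in Ctrl 1 and at 0 in the other libraries. Ifi44, also untested, was at 0.09 and 0.34 FPKM in Ctrl and 0.16 and 0.03 in Nar. Over the 6 untested members, the Nar libraries lay below the Ctrl libraries in 4 and the groups overlapped in 2. Of all 12484 untested genes with values, 35.7% lay below in this way.

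Ratios of genes inside a library do not depend on how the library was scaled, and pairs were chosen for this after the values had been seen. Oasl2 exceeded Oas2 by 4.37-fold in Ctrl 1 and 8.59-fold in Ctrl 3, and by 158-fold in Nar 1 and 112-fold in Nar 3. The ratio of Isg15 to Ifitm1 was 0.981 and 2.20 in Ctrl and 17.2 and 10.9 in Nar. Ifit1 to Ifit3 gave 1.52 and 3.47 in Ctrl and 9.28 and 12.4 in Nar. In each of these pairs the Nar libraries were both above the Ctrl libraries, a direction that the choice of pairs fixed, so the ratios are a description. The exact permutation test gave a two-sided p of 0.333 for each pair, the smallest that 2 libraries against 2 allow, so none of them could reach 0.05. For the neighbours Rsad2 and Cmpk2 the ratio was 112 and 193 in Ctrl and 260 and 259 in Nar, a much smaller distance.

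**Figure D3:**
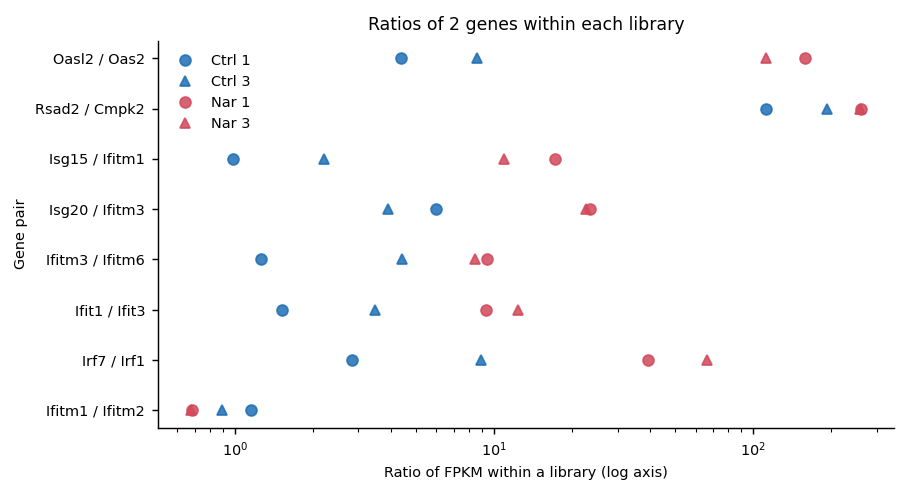
Ratio of the FPKM of 2 genes within each library, on a log axis, for 8 pairs (blue Ctrl, red Nar; circles replicate 1, triangles replicate 3). The Oasl2 to Oas2 ratio moved most, from 4.37 and 8.59 in Ctrl to 158 and 112 in Nar, and the Ifitm1 to Ifitm2 ratio moved least, from 1.16 and 0.897 to 0.682 and 0.681.

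The genes that make and carry the interferon signal were counted from a list of 53, of which 46 had values and 36 were tested. With Nar, 24 of the 36 were called lower and 0 higher (39.3% and 0.15% of all tested genes), with a median difference of -1.44 and, after median-of-ratios scaling, -0.44 with 1 call (Gbp2). The 24 genes then ran from -2.55 (Gbp2) to -0.09 (Irf9). Of the 36, 13 passed the filter through Ctrl alone and 12 of these were called, where 57.8% of all such genes were. Those called were Ifnar1, Tyk2, Stat2, Irf3, Tbk1, Irak4, Pias1, Gbp3, Gbp4, Gbp5, Irgm1 and Irgm2. Of the 23 with both group means at 0.5 FPKM or more, 12 were called (31.9% of all such genes were). Without Ctrl 1 or without Ctrl 3, none of the 36 was called by limma, while 22 and 24 had an unadjusted p-value under 0.05 (2682 and 2133 of the 5339 tested genes did). The interferon genes themselves were hardly seen. Of 8 ligand genes, 7 were blank in every library, among them Ifnb1 and the 4 listed Ifna genes. Ifng, the type II interferon, was at 0.25 and 0.62 FPKM in Ctrl and 0.04 and 0.07 in Nar and was not tested.

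Of the 5 receptor genes, 3 were called lower, beside 39.3% of all tested genes, and 0 after median-of-ratios scaling (9 of the 36 pathway genes then had an unadjusted p-value under 0.05 in limma). Ifnar1, one chain of the type I receptor, was at 1.30 and 1.29 FPKM in Ctrl and 0.65 and 0.25 in Nar (difference -1.45, limma adjusted p = 0.0326). The other chain, Ifnar2, was at 4.97 in Ctrl 1 and 9.77 in Ctrl 3, against 4.31 in Nar 1 and 5.29 in Nar 3, with overlapping groups (difference -0.54, limma adjusted p = 0.358). The receptor chains of interferon gamma, Ifngr1 and Ifngr2, were both called lower, at -1.74 and -1.63 (limma adjusted p = 0.023 and 0.0235).

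Stat2 and Irf9, which act at the ISRE, were called lower, as 39.3% of all tested genes were. Stat2 was at 1.50 and 1.47 FPKM in Ctrl and 0.32 and 0.18 in Nar (difference -2.21, limma adjusted p = 0.00774). Irf9 was at 1.98 and 1.68 in Ctrl and 0.79 in each Nar library (difference -1.11, limma adjusted p = 0.0348). After median-of-ratios scaling Stat2 was at -1.29 and Irf9 at -0.09, and neither was called. Tyk2 was also called lower at -1.53 (limma adjusted p = 0.0256), while Jak1 and Jak2, at -1.01 and -1.40, were not (limma adjusted p = 0.133 and 0.0508).

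Of 6 interferon regulatory factors counted here, 4 were called lower, where 39.3% of all tested genes were. Irf1, which drives early and gamma-induced genes, was at 6.50 FPKM in Ctrl 1 and 8.85 in Ctrl 3, against 0.96 in Nar 1 and 0.60 in Nar 3 (difference -3.16, standard error 0.42, limma adjusted p = 0.00427). Irf7, the main amplifier of type I interferon and itself an interferon-stimulated gene, was at 18.38 in Ctrl 1 and 78.49 in Ctrl 3, against 37.79 in Nar 1 and 39.74 in Nar 3. Its Nar values lay between its widely spaced Ctrl values (difference 0.03, standard error 0.694, limma adjusted p = 0.973). The ratio of Irf7 to Irf1 was 2.83 and 8.87 in Ctrl and 39.4 and 66.2 in Nar. Irf3, Irf5 and Irf8 were called lower at -1.35, -1.28 and -1.44, and Irf2 at -0.84 was not (limma adjusted p = 0.133). With median-of-ratios scaling Irf1 was at -2.11 and Irf7 at 1.13, and no regulatory factor was called.

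Of 13 genes of nucleic acid sensing (adaptors, kinases and Toll-like receptors), 6 could be tested and 4 were called lower, beside 39.3% of all tested genes. They were Myd88, the adaptor of most Toll-like receptors (difference -2.21, limma adjusted p = 0.00683), Irak4 (-1.48), Tbk1 (-1.42) and Tmem173, which encodes STING (-1.31). Of the feedback inhibitors, 2 of 4 tested were called lower, a share near that of all genes, and Socs3 went from 8.37 and 9.15 FPKM in Ctrl to 0.90 and 0.86 in Nar (difference -3.18, limma adjusted p = 0.00385). Socs3 was almost the same in libraries of one group and 9.95-fold apart between groups. Of the GTPases induced by interferon gamma, 7 of 9 tested were called lower, where 39.3% of all tested genes were. Among the 7, Gbp3, Gbp4, Gbp5, Irgm1 and Irgm2 had passed the filter through Ctrl alone, with Nar means of 0.15 to 0.49 FPKM. Of all tested genes that passed in this way 57.8% were called, so the count is no support for a difference. Gbp2, the highest of the guanylate-binding proteins, was at 9.18 and 8.66 FPKM in Ctrl and 0.85 and 0.49 in Nar (difference -3.59, limma adjusted p = 0.00297).

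**Figure D4:**
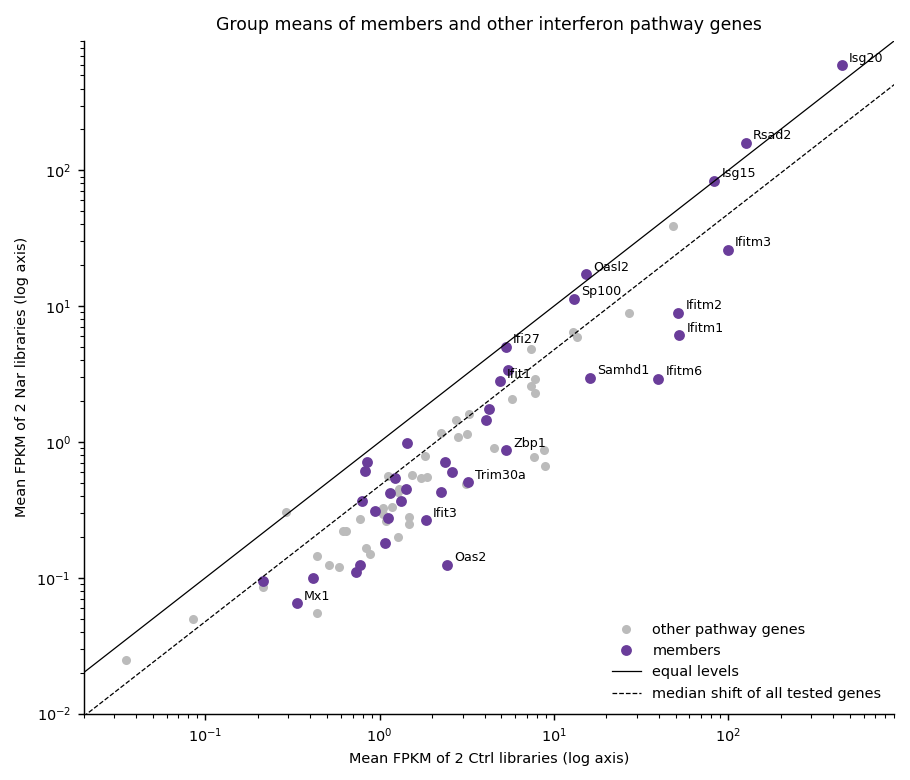
Mean FPKM of the 2 Nar libraries against that of the 2 Ctrl libraries, on log axes, for the members (purple; Mx2, listed at 0 with Nar, is left out) and the other pathway genes (grey). The solid line marks equal levels and the dashed line the median shift of all tested genes, -1.07 in log2; Isg20, Rsad2, Isg15 and Oasl2 lie at the solid line, and Ifitm6 and Oas2 far under the dashed one.

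Blood cell marker genes moved beside these results. All 10 neutrophil markers were called lower with Nar, where 39.3% of all tested genes were, with a median difference of -3.68 and a summed level of 1201 to 1482 FPKM in Ctrl and 92.7 to 139 FPKM in Nar; none of them was at 0. Their median became -2.57 with median-of-ratios scaling. Of 8 tested monocyte markers 4 were called lower, close to the share of all genes, with a summed level of 390 to 468 FPKM in Ctrl and 106 to 163 FPKM in Nar. Of 8 B cell markers 0 were called in limma, with 33.6 to 45.1 FPKM in Ctrl and 33.5 to 34.1 FPKM in Nar, and the same held for 6 tested T cell markers, with 5.65 to 7.87 FPKM and 3.41 to 5.08 FPKM. Natural killer cell markers were called lower in 2 of 6, a share below that of all genes, with 19.5 to 22.1 FPKM in Ctrl and 5.04 to 10.3 FPKM in Nar. The part of these cells in the values of the interferon-stimulated genes was not tested.

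The 10 tested erythroid markers without haemoglobin had a median difference of 0.45 and 0 calls in limma, with a summed level of 7744 to 9106 FPKM in Ctrl and 8674 to 9198 FPKM in Nar. Their range of differences, from -0.21 to 0.92, covers those of Isg20, Rsad2, Isg15, Oasl2, Ifi27 and Sp100. The range of the B cell markers, from -0.63 to 0.55, covers them as well. Platelet markers had differences from -1.51 to -0.73 and 0 of 8 calls in limma, and were high in Ctrl 3. Of the 33 tested members, 5 were more than 2-fold higher in Ctrl 3 than in Ctrl 1 (Ifit1, Oasl1, Ifitm3, Isg15 and Ifi27) and 2 more than 2-fold lower (Ddx58 and Trim30a), beside 910 and 322 of the 5339 tested genes. Of 8 markers of plasmacytoid dendritic cells, the main producers of type I interferon, 2 were tested. The defining marker Siglech was at 0.10 FPKM in Ctrl 1, 0.11 in Nar 1 and 0.02 or less in the others, and Klk1 was listed at 0 throughout. Bst2 and Irf7 belong to that list as well as to the interferon genes. What the red cell and platelet levels contribute was not tested.

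**Figure D5:**
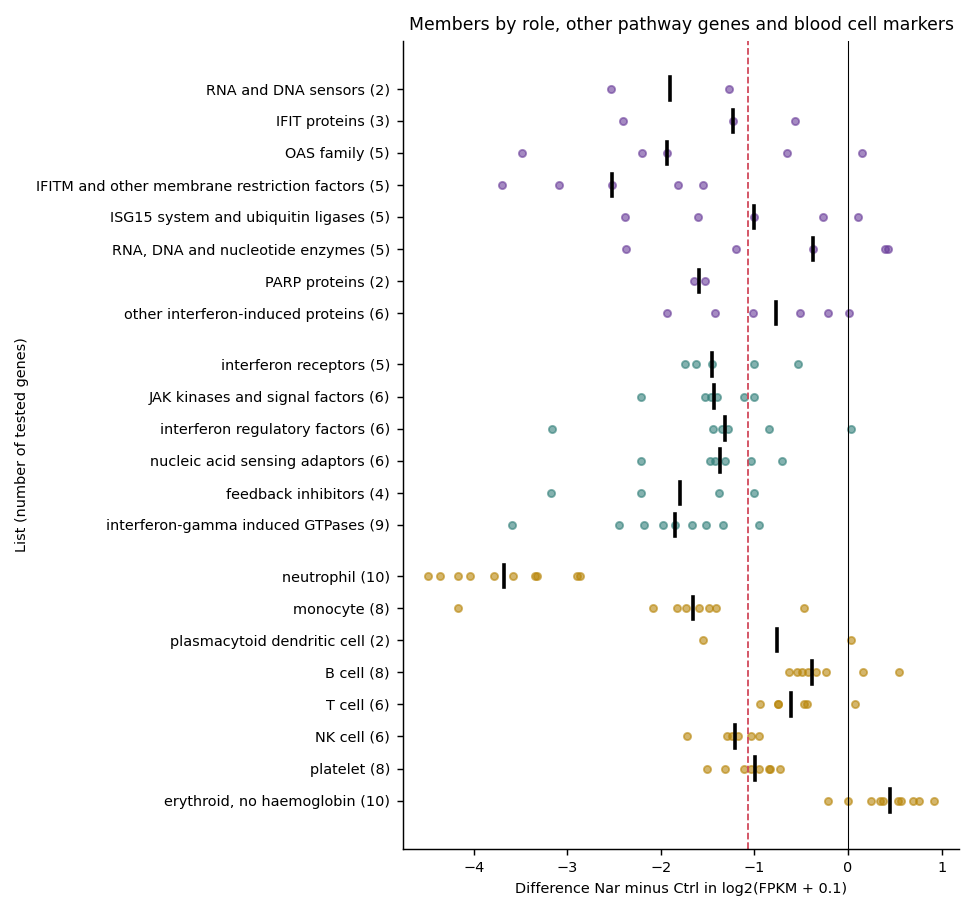
Difference between Nar and Ctrl on the log2(FPKM + 0.1) scale for each tested gene, by list (purple members by role, green other pathway genes, yellow blood cell markers), with list medians as black bars. The dashed line is the median of all tested genes, -1.07; the neutrophil markers (median -3.68) lie lowest, the erythroid markers (median 0.45) highest, and several member groups span most of the range between them.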

How the data were processed

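The deposited values were FPKM of each gene to 2 decimals in 4 blood libraries (Ctrl 1, Ctrl 3, Nar 1, Nar 3). The study's methods name bowtie-2 for alignment and DEGseq, which works on read numbers, for differential expression. The submitters' processing notes name TopHat2, Cufflinks and GRCm38 instead, and which tools made the values was not resolved. Groups came from the sample titles. All 4 value columns were used, and 5313 of 23136 genes were blank in every library. Read numbers are not given, so DEGseq could not be repeated.

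Differences (Nar minus Ctrl) were computed on log2(FPKM + 0.1), which understates changes of low genes, for the 5339 genes whose mean FPKM reached 0.5. They were tested with limma 3.58.1 in R 4.3.3 (lmFit and eBayes, prior variance following mean level), with Benjamini-Hochberg adjustment over all of these genes. A call needed an adjusted p-value under 0.05 and more than 2-fold. The fitting steps were also run on simulated data with the same spread in every gene and no shift of the whole table. Such data are unlike these, so that run does not show how the calls behave here. Median-of-ratios scaling used genes above 0 in all libraries. The alternatives were other pseudocounts, filters and scalings, limma without the trend, a replicate block, and each library left out. Every member was named. Members and lists were chosen with earlier results of these data known. The list entry Mb21d1 was matched as Cgas through RefSeq synonyms, and Trac and Ahsp had no values. A listed pathway gene is not reported here by its own values. Promoters and gene positions came from RefSeq (GRCm38.p6). Plots used matplotlib 3.10.9.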

Additional observations from a re-analysis of the deposited data

How the results depend on the processing

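Rescaling changed most calls. The counts called lower in limma were 20 members, 24 other pathway genes and 2098 of all tested genes. In separate fits, median-of-ratios scaling gave 1, 1 and 19, removal of haemoglobin genes 8, 5 and 267, a pseudocount of 1 gave 12, 7 and 668, and a mean FPKM of at least 5 gave 5, 0 and 116. The 0 stands beside 3 of 7 pathway genes and 33.9% of all genes at an unadjusted p-value under 0.05 in limma. Without the filter all 3 counts were 0 (64.1% of members and 30.4% of all genes had an unadjusted p-value under 0.05). With one library left out, the counts ran from 0 to 6, from 0 to 8 and from 0 to 254, with 0 in each when Ctrl 1 or Ctrl 3 was left out, 6, 8 and 254 without Nar 1, and 3, 4 and 213 without Nar 3. No member was called higher in limma under any of these alternatives. The median difference of the tested members, -1.42, was -0.75 with a pseudocount of 1, -0.21 at a mean FPKM of at least 5, -0.88 without haemoglobin genes and -0.35 with median-of-ratios scaling, and -1.59 to -1.23 with one library left out. Its distance from the median of all genes was -0.34; it was -0.13 with a pseudocount of 1, -0.79 without the filter, 0.73 at a mean FPKM of at least 5, where the direction turned, and -0.37 to -0.21 with one library left out. Members below Ctrl in both Nar libraries numbered 28 of 39 (48.5% of all genes with values, genes at 0 included), and 18 after median-of-ratios scaling (16.9% of all genes). These shares are of unlike sets, because 33 of the 39 members but only 5339 of the 17823 genes with values were tested. Among tested genes, 72.7% of members and 78.3% of all lay below, and among untested genes 35.7% of all did. The scaled counts were not split in this way.

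Differences that changed sign belonged to uncalled genes. With median-of-ratios scaling Cmpk2 was 0.60, Ifit1 0.50, Oas3 0.43, Sp100 0.89, Usp18 0.70 and Xaf1 0.51. Without haemoglobin genes Cmpk2 was 0.12, Sp100 0.35, Usp18 0.23 and Xaf1 0.01. Ifi27 was -0.05 as TPM and -0.0024 with a pseudocount of 1. With one library left out, Ifi27 ran from -0.56 to 0.59, Isg15 from -0.46 to 0.68, Oasl2 from -0.27 to 0.57, Ifit1 from -1.40 to 0.26 and Usp18 from -0.79 to 0.25. The causes were not tested, and some settings also leave fewer genes or libraries.

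The groups share the numbers 1 and 3, which by the labels are only numbers. Deviations of same-numbered libraries from their group means correlated at -0.153 across genes. With the replicate block 17 members, 22 other pathway genes and 1802 of all genes were called lower; with the numbers crossed in the block, an alternative added after seeing the data, the counts were 21, 30 and 2844. Depth is unknown, which limits members near 0.1 FPKM.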
